A study of Homo sapiens with 4 samples.

Results

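LINC transcripts are long intergenic noncoding RNAs, and the 244 examined here are those with appreciable read counts in the ovarian cancer cell line TOV-112D. They are rows annotated as lncRNA whose symbol is LINC followed by digits, and they were selected on the sum of their counts over 4 libraries, which had to reach 100. The table held 28973 rows, 1210 of them LINC rows, so the chosen transcripts were 20.2% of the LINC rows, and 133 LINC rows had no count in any library. Because the sum of counts chose them, their presence is a description and not a result, and the comparisons of the libraries set out below were named together with that rule. The study compared palmitic acid (PA), a saturated fatty acid, with bovine serum albumin (BSA), its usual carrier. Per the labels all 4 libraries were from TOV-112D cells, 2 titled BSA as negative control and 2 titled PA, and both treatments carry 200 µM and 24 h. The labels do not say whether replicate libraries were grown as separate cultures, and p-values therefore reflect the spread between libraries, which may be technical.

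What the PA libraries received is labelled in conflicting ways, since their description names an SPTLC2 knockdown while the protocol names hairpins shCON and shZDHHC15. SPTLC2, a subunit of serine palmitoyltransferase, had 1524 and 1080 counts in the BSA libraries against 2194 and 1740 in the PA libraries. Pairs of values are given throughout in the order of replicates 1 and 2. ZDHHC15, a palmitoyltransferase, had 291 and 225 counts under BSA against 190083 and 167798 under PA. Both went against a knockdown in the libraries labelled PA, and which treatment these libraries carried cannot be told apart from the files, so they are called here by their label. Total counts ran from 23722074 to 31695944 per library. Of 10 ovarian or epithelial carcinoma markers, 3 were higher in both PA libraries than in both BSA libraries and 1 was lower. KRT8 had 976 and 1122 CPM (counts per 1000000 counts of the library) under BSA and 1552 and 1735 CPM under PA. MUC16 had 15.9 and 12.2 CPM against 42.9 and 39.8 CPM, and PAX8 had 2.72 and 5.40 CPM against 6.34 and 7.55 CPM. KRT18 and KRT7 ran from 578 to 951 CPM, and EPCAM, CDH1, KRT19, WT1 and ESR1 from 0 to 1.36 CPM. All 3 endothelial markers were higher in both PA libraries, summing to 0.279 and 0.536 CPM under BSA and 3.37 and 3.12 CPM under PA, with PECAM1 at 0 in BSA replicate 2. The 3 erythroid rows summed to 0.454 and 0.347 CPM under BSA and 0.169 and 0.169 CPM under PA. The part of these low markers in the differences below was not tested.

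Long intergenic noncoding RNAs are transcribed by RNA polymerase II, are commonly capped, spliced and polyadenylated, and lack a long conserved reading frame. They tend to be less abundant than messenger RNAs and to vary more between cell types. Some act in the nucleus on chromatin or on a neighbouring gene, some bind proteins or microRNAs in the cytoplasm, a few encode micropeptides, and most have no described role. In bulk RNA a smaller number of expressing cells and less RNA per cell cannot be told apart.

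The 244 transcripts lay on 23 chromosomes, 35 of them on chromosome 1 and 21 on chromosome 2. Their median longest transcript in GENCODE 29 had 1996 bases. The most exons in any transcript of the gene had a median of 3, and 21 had only transcripts of a single exon. Median GC content was 49.9% over the 235 with a GENCODE 29 entry, against 49.0% for protein-coding rows with the same count sum. The word intergenic holds for the names more than for the positions. In the table's hg38 coordinates, 114 of the 244 overlapped another row, 97 overlapped a row on the opposite strand and 23 overlapped a protein-coding row. These overlaps are of whole gene spans, introns included, and overlap of exons was not computed. The library kit named in the labels does not mark strand, so reads from stretches shared by a pair cannot be told apart by strand.

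Promoter windows are shown for 4 transcripts that stood at least 2-fold away from both BSA libraries in the same direction, a pair that was higher and a pair that was lower under PA. They were picked after their motifs were seen, to show windows with different motifs. The choice was from 9 windows whose RefSeq start lay within 500 bases of the 5′ end in the table. Of the other 5 windows, those of LINC00957, LINC01547 and LINC02166 held no motif, LINC00165 held a CCAAT box and LINC01315 held 2 CCAAT boxes and an E-box. The 9 windows came from 13 candidates, not from all transcripts past 2-fold against both BSA libraries that had a window. Those were 6 higher and 23 lower, so other windows may also have met the limit of 500 bases. Any candidate on the chromosome of LINC01607, which was also past 2-fold lower, was left out before the limit of 500 bases was applied. RefSeq on GRCh38.p14 gave a window from 250 bases before to 50 bases after the start for 148 of the 244 transcripts. Capitals mark matches, on either strand, to any of 7 motifs. LINC02009, on the minus strand at chr3:46423618-46423917, holds an E-box. LINC00265, on the plus strand at chr7:39733318-39733617, holds a cyclic AMP response element. LINC02111, on the minus strand at chr5:17387261-17387560, holds an interferon-stimulated element core. LINC01521, on the plus strand at chr22:31346509-31346808, holds 2 CCAAT boxes and a TATA box match.
LINC02009: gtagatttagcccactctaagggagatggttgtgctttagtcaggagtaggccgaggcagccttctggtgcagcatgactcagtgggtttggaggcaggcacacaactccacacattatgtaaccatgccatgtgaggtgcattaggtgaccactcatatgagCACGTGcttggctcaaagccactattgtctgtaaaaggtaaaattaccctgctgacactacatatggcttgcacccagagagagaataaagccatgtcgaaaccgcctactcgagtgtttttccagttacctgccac
LINC00265: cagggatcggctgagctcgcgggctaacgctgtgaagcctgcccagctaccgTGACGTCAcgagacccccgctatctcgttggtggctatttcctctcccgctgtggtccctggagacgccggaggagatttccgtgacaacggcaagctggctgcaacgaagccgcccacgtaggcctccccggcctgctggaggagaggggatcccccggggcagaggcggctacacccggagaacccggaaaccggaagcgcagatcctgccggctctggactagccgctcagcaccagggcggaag
LINC02111: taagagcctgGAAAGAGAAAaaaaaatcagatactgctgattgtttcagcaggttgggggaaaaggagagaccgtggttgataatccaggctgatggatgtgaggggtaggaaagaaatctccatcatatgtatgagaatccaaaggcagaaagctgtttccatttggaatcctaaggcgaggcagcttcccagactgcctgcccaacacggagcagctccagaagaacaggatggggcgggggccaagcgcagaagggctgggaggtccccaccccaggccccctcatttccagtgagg
LINC01521: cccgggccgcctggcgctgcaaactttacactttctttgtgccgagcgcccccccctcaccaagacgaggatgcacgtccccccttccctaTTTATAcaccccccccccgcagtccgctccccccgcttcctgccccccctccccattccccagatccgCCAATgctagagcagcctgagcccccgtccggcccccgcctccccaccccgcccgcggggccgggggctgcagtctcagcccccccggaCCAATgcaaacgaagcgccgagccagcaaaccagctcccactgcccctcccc

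Over the 148 windows the CCAAT box (CCAAT) was found in 40.5%, against 34.6% of all 35116 RefSeq windows. The E-box (CACGTG) was in 9.46% against 7.26%, the TATA box (TATAAA) in 10.8% against 11.5%, and the interferon-stimulated element core in 4.73% against 3.57%. The cyclic AMP response element (TGACGTCA) was in 2.03% against 1.85%, the NF-kB element in 1.35% against 1.91%, and the sterol regulatory element (TCACNCCAC) in 1.35% against 1.13%. Windows with at least 50% GC and an observed over expected CpG ratio of at least 0.6 made up 37.2% of the LINC windows and 46.9% of all windows. A match describes letters in the window and does not show binding.

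As a group these transcripts took a small share of the counts, and the share was smaller in both PA libraries than in both BSA libraries. They held 0.246% (95% Wilson interval 0.244 to 0.248) and 0.294% (0.292 to 0.296) of the counts in BSA replicates 1 and 2. In PA replicates 1 and 2 they held 0.207% (0.205 to 0.208) and 0.193% (0.192 to 0.195). The groups did not overlap, and with 2 against 2 libraries the smallest exact two-sided permutation p is 0.333. The intervals cover counting error only. LINC00963, described as raised in prostate cancer, alone held 15.9% of the group's counts, with 0.0345% and 0.0751% of all counts under BSA and 0.0185% and 0.0168% under PA. Without it the shares were 0.212% and 0.219% under BSA and 0.188% and 0.177% under PA, so the order of the groups was kept and the gap between the BSA libraries narrowed. Abundance varied widely, with count sums from 100 to 43170 and a median of 338.5. The median of the mean FPKM, which is scaled to transcript length and depth, was 1.15, and 61 of the 244 were under 0.5 FPKM.

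**Figure D1:**
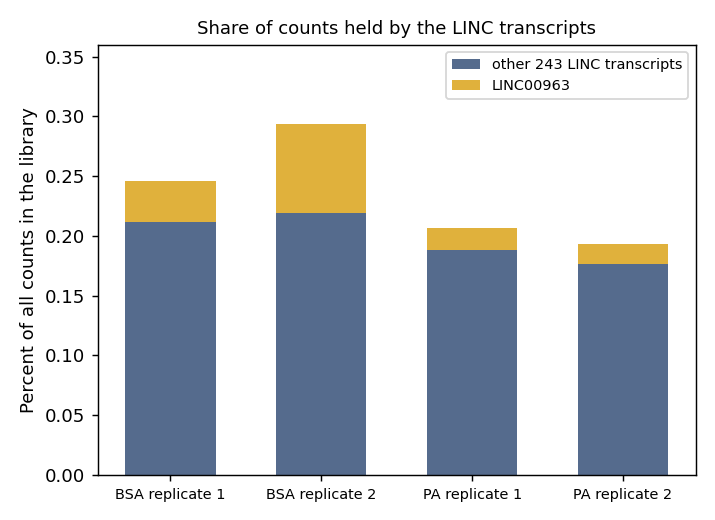
Bars give the percent of all counts in each of the 4 libraries that fell on the 244 LINC transcripts, with LINC00963 stacked on the other 243. Both PA libraries sit at 0.207% and 0.193%, under the BSA libraries at 0.246% and 0.294%, and LINC00963 takes 0.0751% in BSA replicate 2.

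The design asks which transcripts differ between PA and BSA, and each BSA library was also set against the PA libraries on its own. Lower levels under PA were more frequent than higher ones. Against BSA replicate 1, the mean of the PA libraries was past 2-fold higher for 26 transcripts (10.7%; 10.4% of the 15027 rows with a sum of at least 100) and lower for 60 (24.6%; 22.0% of all such rows). Against BSA replicate 2 it was higher for 23 (9.43%; 11.1% of rows) and lower for 67 (27.5%; 10.8% of rows). The share of lower transcripts was therefore near the background against BSA replicate 1 and above it against BSA replicate 2. Past 2-fold the same way against both, 14 transcripts were higher (5.74%; 5.88% of rows) and 46 were lower (18.9%; 5.37% of rows). None was past 2-fold in opposite directions (0.672% of rows were). The comparisons share the PA libraries, so their shared calls are not independent.

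Other noncoding rows with the same count sum also had more lower than higher members. Lower against both BSA libraries were 16.9% of 445 antisense rows, 19.6% of 51 host genes of small RNAs and 12.6% of 1699 other lncRNA rows, against 3.67% of 12580 protein-coding rows. Noncoding rows also had fewer counts, with a median sum of 338.5 for LINC rows and 3590.5 for protein-coding rows. Among rows with a sum of at least 400, 18 of 110 LINC transcripts were lower against both (16.4%; 3.24% of 12141 rows) and 2 were higher (1.82%; 5.36% of rows). No difference between classes was tested.

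**Figure D2:**
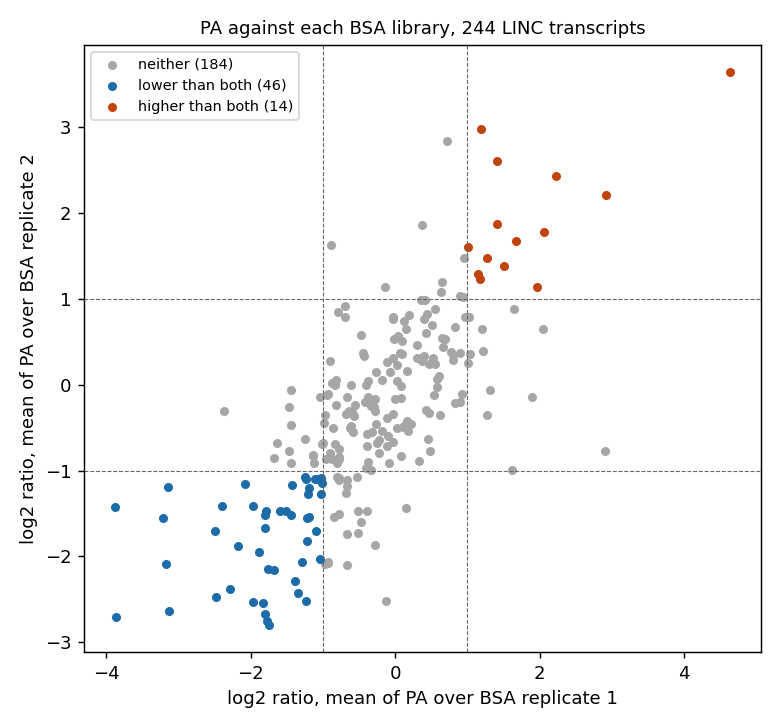
Each of the 244 points is a LINC transcript, placed by the log2 ratio of mean PA over BSA replicate 1 (x axis) and over BSA replicate 2 (y axis), with dashed lines at 2-fold. The lower left corner holds 46 transcripts and the upper right corner 14, and neither of the opposite corners holds any.

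**Figure D3:**
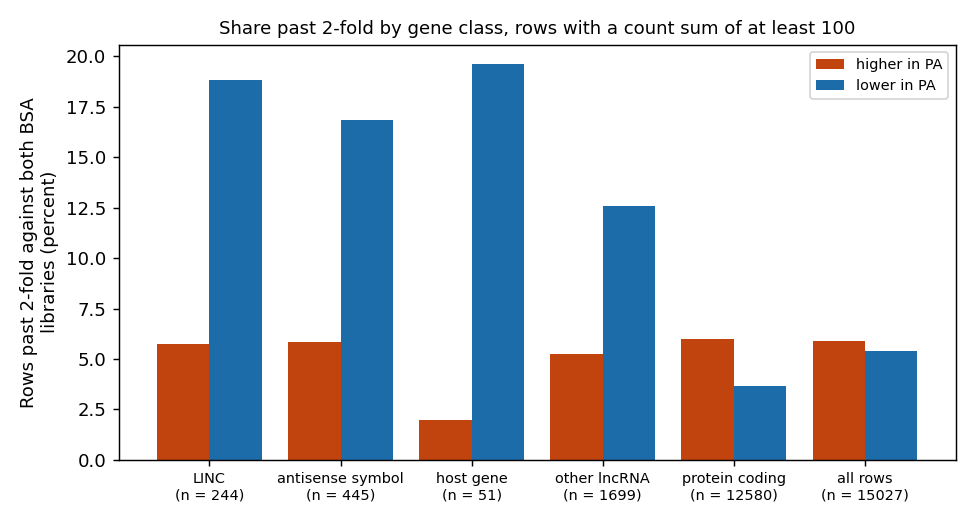
Bars give the percent of rows past 2-fold against both BSA libraries, higher or lower in PA, for each class of rows with a count sum of at least 100. LINC rows stand at 18.9% lower and 5.74% higher, and protein-coding rows at 3.67% lower and 5.97% higher.

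No LINC transcript passed the test over all 4 libraries. By edgeR's quasi-likelihood test with Benjamini-Hochberg adjustment, 0 of 244 had an adjusted p under 0.05 (0.0% of the 17449 rows tested), and the smallest adjusted p was 0.0589, for LINC02593. At an unadjusted p under 0.05 there were 24 higher (9.84%; 13.1% of rows) and 55 lower (22.5%; 11.2% of rows). DESeq2 called 39 of the 244 (10.5% of rows), 9 of them higher (6.11% of rows) and 30 lower (4.34% of rows). Without the filter on low counts edgeR called 26 of the 244 (4.72% of rows). Limma on log2(FPKM + 1), limma on log2(FPKM + 0.1) and limma-voom each called none of the 244 and 1 row in all (0.00573% of rows). Leaving out 1 BSA library changed the count most. When BSA replicate 1 was dropped, edgeR called 129 (47.9% of rows), 42 of them higher (25.3% of rows) and 87 lower (22.6% of rows). When BSA replicate 2 was dropped, it called 122 (57.3% of rows), 44 of them higher (27.3% of rows) and 78 lower (30.0% of rows). In these fits the lone BSA library is assumed to vary like the PA libraries. Dropping PA replicate 1 or PA replicate 2 gave 0 calls among the 244 (0.0864% and 0.0481% of rows). The median log2 fold change was −0.32 over the 244 and −0.12 over all rows tested. Estimates were below 0 for 156 of the 244 (63.9%; 55.6% of rows with a sum of at least 100).

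The levels of PA and BSA did not overlap for 171 transcripts, of which 116 were lower under PA (47.5%; 32.0% of rows) and 55 were higher (22.5%; 27.2% of rows). The 60 transcripts past 2-fold against both were among them.

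Among the 14 that stood higher under PA, LINC02009 had the largest difference and LINC00265 the highest counts. LINC02009 (chr3:46416524-46423591, minus strand) had 2 and 5 counts under BSA and 83 and 39 under PA. Its summed counts relative to depth were 19.7-fold higher under PA, with an exact 95% interval of 9.28 to 50.04 that covers counting error only. It reached the count sum of 100 through the PA libraries, so these values describe a transcript that had to differ. The fitted log2 fold change was 4.29 ± 0.62 (SE, n = 2 per group; edgeR adjusted p = 0.0689). Its nearest protein-coding gene was LTF, which encodes the iron-binding protein lactoferrin, 12054 bases away on the same strand. LTF had 5 and 7 counts under BSA and 725 and 668 under PA, with a log2 fold change of 7.09 ± 0.42 (edgeR adjusted p = 0.0544), so both were low in both BSA libraries and higher in both PA libraries.

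LINC00265 (chr7:39733430-39793092, plus strand), described as raised in several cancers, had 11.1 and 11.1 CPM under BSA and 37.1 and 33.9 CPM under PA. Its groups were far apart relative to the spread within them, with a 3.19-fold difference in mean CPM and a log2 fold change of 1.74 ± 0.27 (edgeR adjusted p = 0.0691). The reference lists copies named LINC00265-2P and LINC00265-3P, which are not among the symbols of the table, so how reads shared with them were counted is uncertain. LINC02057 had 24 and 23 counts under BSA and 107 and 105 under PA, and overlaps SMIM15-AS1. LINC02100 had 12 and 22 counts under BSA and 90 and 84 under PA. For both, the PA libraries were close to each other and above both BSA libraries, with log2 fold changes of 2.43 ± 0.37 and 2.61 ± 0.44 (edgeR adjusted p = 0.0689 and 0.0748). Both can have reached the count minimum through the PA libraries, where they were high, so their differences may in part follow from the choice of transcripts.

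The other named higher transcripts were scarce, and such transcripts can also have reached the sum of 100 through the group where they were high. LINC01315 had 14 and 19 counts under BSA and 54 and 57 under PA, and LINC00525, which overlaps PKD1L1, had 25 and 20 against 75 and 52. LINC01347 had 19 and 23 against 44 and 59, and LINC02887 had 27 and 26 against 72 and 52. In these 4 the BSA libraries lay within a few counts of each other. LINC00173 differed from that, with 51 and 16 counts under BSA and 120 and 98 under PA, as did LINC00957 with 17 and 8 against 35 and 52. LINC01376 had 21 and 21 counts under BSA and 63 and 30 under PA, so here the PA libraries were the more unequal pair. LINC01366, with 16 and 17 against 36 and 32, had a count sum of 101 and stood just inside the choice of transcripts, beside LINC02798 and LINC00243 at 100 each. Just outside, LINC01842, LINC00702 and LINC01512 had 98 counts each. Over all 14, log2 fold changes ran from 1.29 to 4.29 and adjusted p from 0.0689 to 0.168 in edgeR.

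Among the 46 that stood lower under PA, LINC02593 had the smallest adjusted p. LINC02593 (chr1:916865-921016, minus strand) had 29.9 and 21.2 CPM under BSA and 3.51 and 3.29 CPM under PA. Both PA libraries were far below both BSA libraries, a 7.52-fold difference in mean CPM with a log2 fold change of −2.83 ± 0.34 (edgeR adjusted p = 0.0589). LINC02111 (chr5:17378906-17387310, minus strand) had 75 and 82 counts under BSA and 13 and 11 under PA, or 2.62 and 2.59 CPM against 0.438 and 0.464 CPM. Replicates of LINC02111 were close in both groups, and its log2 fold change was −2.45 ± 0.38 (edgeR adjusted p = 0.0704). LINC00641, described in studies of autophagy and cancer, had 12.5 and 10.2 CPM under BSA and 2.56 and 2.95 CPM under PA, with a log2 fold change of −1.96 ± 0.33 (edgeR adjusted p = 0.0732).

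Several of the largest lower ratios came with unequal BSA libraries. LINC01355 had 24.8 and 11.7 CPM under BSA and 2.90 and 2.57 CPM under PA, and LINC01410 had 108 and 53 counts under BSA against 13 and 3. In both, BSA replicate 1 was the higher, and the log2 fold changes were −2.65 ± 0.47 and −3.13 ± 0.73 (edgeR adjusted p = 0.0775 and 0.103). BSA replicate 2 was the higher for LINC00165, at 12.4 and 18.4 CPM against 3.34 and 2.99 CPM under PA. The same held for LINC01977 with 155 and 281 counts against 42 and 38, LINC02166, which overlaps CDK10, with 51 and 112 against 10 and 18, and LINC00926 with 33 and 67 against 17 and 4. LINC03048 had 80 and 116 counts under BSA and 27 and 17 under PA. LINC02806, which overlaps LINC01138, had 133 and 157 counts against 22 and 28. In all of these both PA libraries were below both BSA libraries. The scarce ones, such as LINC01410, LINC02166 and LINC00926, can have reached the count sum through the BSA libraries, where they were high. Over the 46, log2 fold changes ran from −3.13 to −0.999 and adjusted p from 0.0589 to 0.212 in edgeR. Of the 46, 22 overlapped another row (47.8%), near the 46.7% of all 244. Of the 14 that were higher, 3 did (21.4%).

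**Figure D4:**
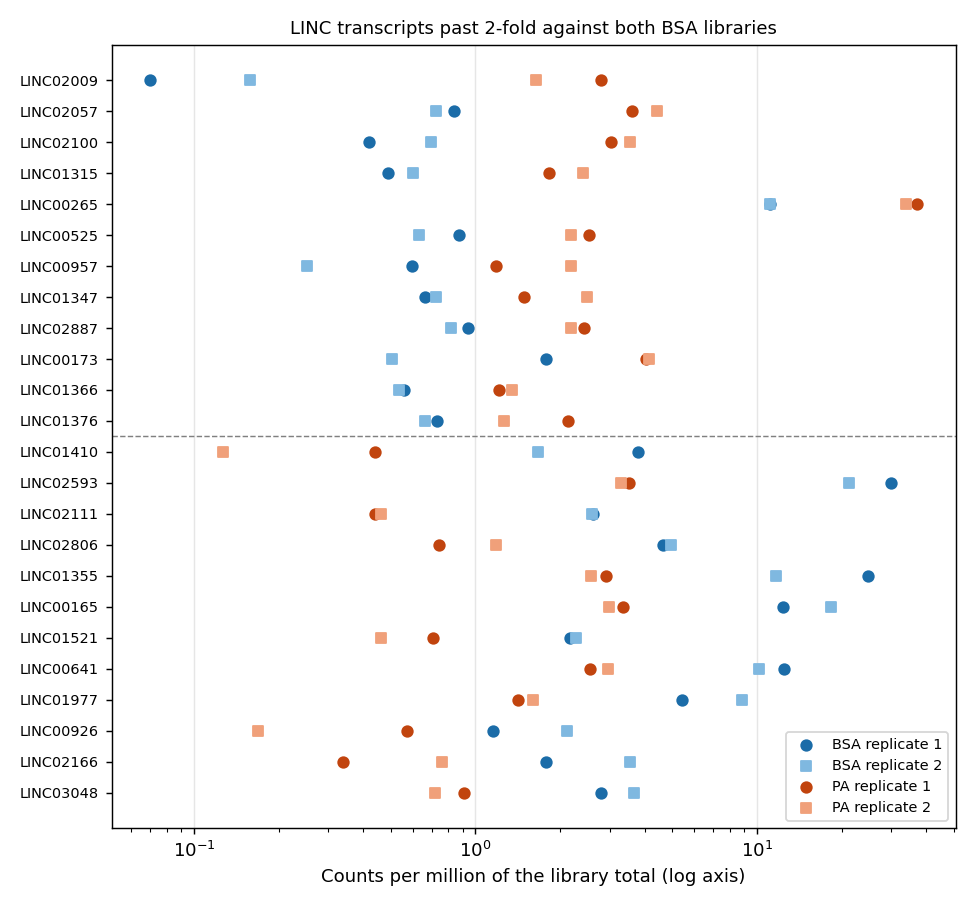
Points give CPM (log axis) in each of the 4 libraries for the 12 higher (top) and 12 lower (bottom) LINC transcripts with the largest ratios against both BSA libraries. In every row the PA points lie on one side of the BSA points, and the BSA points of LINC00265 fall on each other at 11.1 CPM.

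The abundant transcripts mostly differed little or unevenly. The 8 of highest mean FPKM ran from 10.4 to 25.8 FPKM. LINC00963 (chr9:129476946-129513687, plus strand) led, with 345 and 751 CPM under BSA and 185 and 168 CPM under PA. Both PA libraries were below both BSA libraries, but BSA replicate 2 was more than 2-fold above BSA replicate 1, and the log2 fold change was −1.57 ± 0.43 (edgeR adjusted p = 0.128). LINC00958, described in liver cancer lipogenesis, had 88.6 and 133 CPM under BSA and 103 and 95.9 CPM under PA, so its groups overlapped. Of these 8, LINC03040 and LINC01537 had both PA libraries above both BSA libraries. LINC03040 had 100 and 89.3 CPM under BSA and 131 and 117 CPM under PA, with a log2 fold change of 0.46 ± 0.20 (edgeR adjusted p = 0.238). LINC00942 had 15.7 and 36.5 CPM under BSA and 23.5 and 16.4 CPM under PA, which overlapped. LINC00106 had 7.5 and 10.8 CPM under BSA against 6.0 and 3.71 CPM under PA, a small but separate difference. LINC00294, which overlaps CSTF3 and TCP11L1, had 53.0 and 42.7 CPM against 60.9 and 50.2 CPM, which overlapped. LINC01537 had 34.6 and 28.7 CPM against 36.2 and 37.3 CPM. LINC00165, given above, was the other one of the 8.

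Listed LINC genes with a described product or role gave 12 of the 244. Of the 8 with a described micropeptide, LINC00467 and LINC00665 were present. LINC00467, whose micropeptide was described at the mitochondrial ATP synthase, had 526 and 527 counts under BSA and 205 and 207 under PA. Both PA libraries were below both BSA libraries, at 18.4 and 16.6 CPM under BSA and 6.91 and 8.73 CPM under PA, with a log2 fold change of −1.09 ± 0.31 (edgeR adjusted p = 0.139). LINC00665 had 78.9 and 72.5 CPM under BSA and 51.4 and 51.0 CPM under PA, a smaller but also separate difference.

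Of the 21 listed as regulatory, 10 were present. Beside LINC00963, LINC00958 and LINC00641 above, LINC00339, which lies near CDC42, had 124 and 110 counts under BSA and 43 and 25 under PA. LINC00324 had 120 and 202 counts against 48 and 47, and both of these were past 2-fold lower against each BSA library. LINC00511, described as a partner of the histone methyltransferase EZH2, had 22.4 and 27.0 CPM under BSA and 13.2 and 12.4 CPM under PA. LINC01133, described as binding the splicing factor SRSF6, had 12.9 and 7.95 CPM against 6.17 and 3.50 CPM. LINC00662 had 47.6 and 43.4 CPM against 31.6 and 30.4 CPM, and LINC00174 had 33.0 and 46.5 CPM against 30.3 and 31.3 CPM. These 4 were lower in both PA libraries than in both BSA libraries by less than 2-fold against at least one of them. LINC00707 overlapped, at 14.5 and 10.1 CPM under BSA and 14.1 and 15.7 CPM under PA. In all, 0 of the 12 passed edgeR's test (0.0% of rows). Of the 12, 10 had groups that did not overlap and were lower (32.0% of rows), 4 were past 2-fold lower against both BSA libraries (5.37% of rows), and the median log2 fold change was −0.96 (−0.12 over all rows tested).

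The BSA libraries differed from each other as well. BSA replicate 2 was past 2-fold above BSA replicate 1 for 26 transcripts (10.7%; 6.28% of rows) and below it for 19 (7.79%; 19.2% of rows). The PA libraries were closer, with PA replicate 2 past 2-fold higher for 3 (0.472% of rows) and lower for 6 (1.18% of rows). The standard deviation of the log2 ratio over the 244 was 0.83 between the BSA libraries, 0.43 between the PA libraries, and 1.15 and 1.13 for PA against BSA replicates 1 and 2.

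LINC01081 had the widest BSA gap, with 4 and 63 counts under BSA and 49 and 19 under PA. LINC00163 had 41 and 241 counts under BSA and 46 and 26 under PA, so only BSA replicate 2 was high. LINC03047 had 8 and 57 counts against 28 and 20, and LINC02878, which overlaps ZNF707, had 36 and 165 against 130 and 120, with PA between the BSA libraries in both. LINC00472, described as a tumour suppressor in breast cancer, went the other way, with 739 and 142 counts under BSA and 384 and 353 under PA between them. LINC01806 had 176 and 46 counts against 37 and 26, and LINC02966 had 25 and 6 against 51 and 29. LINC03015 had 468 and 94 counts under BSA and 38 and 22 under PA, and was the one of these 8 past 2-fold the same way against both BSA libraries.

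The ratio between the BSA libraries was also set against GC content. Spearman's rho of GC with the log2 ratio of BSA replicate 2 over 1 was 0.25 across 235 LINC transcripts, 0.37 across antisense rows, 0.37 across other lncRNA rows, 0.63 across host genes, 0.68 across protein-coding rows and 0.64 across all rows, given as descriptions since all points share the same libraries. The difference between these correlations was not tested. In 3 bins of 79, 78 and 78 transcripts, from lowest to highest GC, the medians of that ratio were −0.20, 0.10 and 0.24. The median log2 fold changes of PA over BSA in the same bins were −0.36, −0.28 and −0.31, and 17, 15 and 14 transcripts were past 2-fold lower against both BSA libraries. With a trend over GC and length removed, edgeR called 17 of 235 LINC transcripts (8.13% of rows), 6 higher (5.51% of rows) and 11 lower (2.62% of rows). The part of GC in the differences between PA and BSA was otherwise not tested.

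Position gave a weak relation. For 168 of the 244 (68.9%) the nearest tested protein-coding gene lay within 50 kb, and Spearman's rho between the log2 fold changes of transcript and neighbour was 0.29. It was 0.31 over the 147 of these pairs without overlap and −0.08 over the 76 pairs beyond 50 kb. For the ratio between the BSA libraries it was 0.10 within and 0.09 beyond 50 kb. Over the 16 divergent pairs within 5 kb it was 0.33 for PA over BSA and 0.38 for the ratio between the BSA libraries. All values come from the same 4 libraries, and the difference between near and far pairs was not tested.

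**Figure D5:**
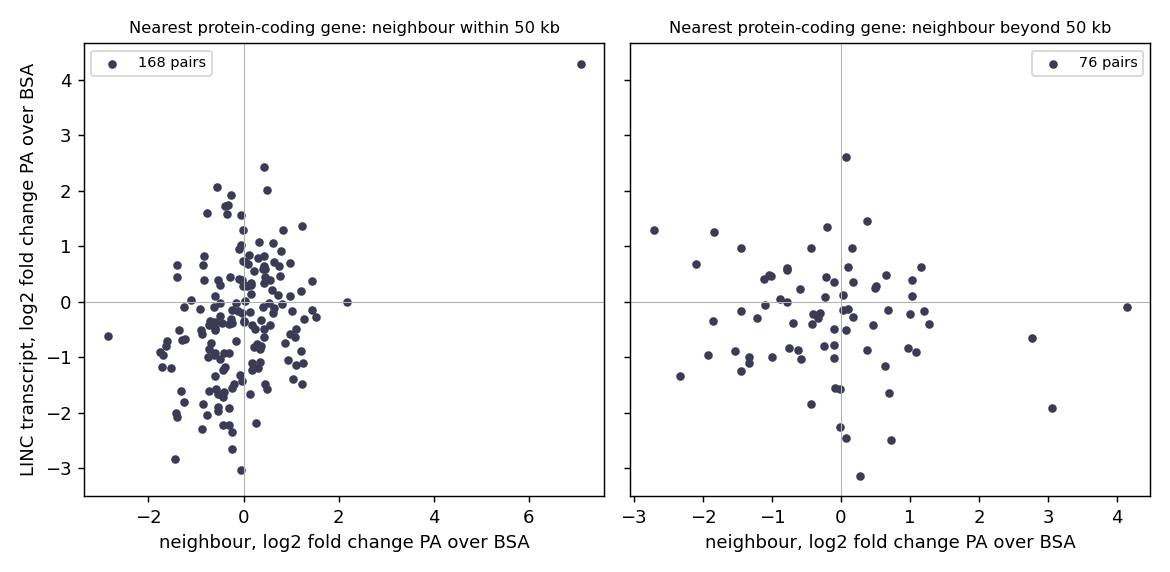
Each point is a LINC transcript and its nearest tested protein-coding gene, with the neighbour's log2 fold change of PA over BSA on the x axis and that of the transcript on the y axis. The 168 pairs within 50 kb (left) have a Spearman's rho of 0.29 and the 76 pairs beyond it (right) one of −0.08, and the point farthest to the right is LTF with LINC02009.

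In 16 pairs the transcript and its neighbour were divergent, with starts facing apart and 57 to 3922 bases between them. Such pairs often share a promoter region. Estimates had the same sign in 8 pairs and opposite signs in 8, of which 6 had a negative transcript and a positive neighbour. In these 6 the neighbour's log2 fold change was 1.52 (POFUT2), 1.09 (JUN), 1.02 (CELSR1), 0.18 (ANXA11), 0.14 (CAPN15) and 0.0027 (UBE2G2). That of the transcript ran from −1.23 to −0.16, so several of these signs rest on values near 0. Shares of such signs over other pairs of genes were not computed. LINC01521, 431 bases from PATZ1, a zinc finger transcription factor, had 62 and 72 counts under BSA and 21 and 11 under PA. PATZ1 had 50.6 and 58.3 CPM under BSA and 28.6 and 28.7 CPM under PA, so both were lower in both PA libraries, with log2 fold changes of −1.83 ± 0.42 and −0.85 ± 0.24 (edgeR adjusted p = 0.0981 and 0.139). LINC02593 and SAMD11, 2907 bases apart, also had the same sign, and SAMD11 had 145 and 188 CPM under BSA and 58.3 and 58.0 CPM under PA. So did LINC01607 and HEY1, a transcriptional repressor in Notch signalling, 253 bases apart. LINC01607 had 27 and 56 counts under BSA and 14 and 6 under PA, and HEY1 had 45.7 and 46.2 CPM against 16.9 and 20.0 CPM. LINC01547 had 500 and 462 counts under BSA and 208 and 142 under PA, while SLX9, 71 bases away, had 59.6 and 64.2 CPM against 45.5 and 41.6 CPM.

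Opposite directions were seen for LINC01135 and JUN, a subunit of the AP-1 transcription factor, 336 bases apart. LINC01135 had 3.56 and 3.60 CPM under BSA and 1.58 and 1.52 CPM under PA. JUN had 147 and 175 CPM under BSA and 337 and 318 CPM under PA, with log2 fold changes of −1.13 ± 0.33 for the transcript and 1.09 ± 0.22 for JUN (edgeR adjusted p = 0.144 and 0.0868). LINC00205 and POFUT2, a protein O-fucosyltransferase, lay 137 bases apart. LINC00205 had 59.3 and 67.9 CPM under BSA and 57.8 and 42.4 CPM under PA, while POFUT2 had 41.6 and 56.3 CPM against 134 and 134 CPM. The log2 fold changes were −0.28 ± 0.26 and 1.52 ± 0.25 (edgeR adjusted p = 0.534 and 0.0732), so the difference of the transcript was small.

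Of 17 pairs of LINC transcripts within 50 kb of each other, 10 had the same sign, 9 of them both negative, and 10 overlapped. LINC00163 and LINC00165 lie 276 bases apart on the same strand of chromosome 21. Both were highest in BSA replicate 2, with 41 and 241 counts for LINC00163 and 355 and 582 for LINC00165 under BSA. Under PA, LINC00165 had 99 and 71 counts, below both BSA libraries, while LINC00163 had 46 and 26, which overlapped BSA replicate 1 at 41.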

How the data were processed

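RNA of 4 TOV-112D libraries, 2 BSA and 2 PA, was sequenced. Per the submitters' processing notes, hg38, HISAT2, StringTie and SAMtools were used. Tool versions, annotation release, counting settings and strand use were not given in the sources used here. Groups came from the sample titles. The authors deposited whole-number counts of reads for each gene and FPKM values scaled to gene length and depth, as the file headers name them.

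LINC rows with a count sum of at least 100 were kept. The members, the lists and the comparisons were chosen with earlier results of these data known. CPM is counts per 1000000 counts of the library, and log2 ratios add 0.5 counts. In R 4.3.3, edgeR 4.0.16 tested all rows (TMM factors, filterByExpr with a minimum count of 10, which left 17449 rows and all 244 members, quasi-likelihood F test, Benjamini-Hochberg adjustment over all rows, threshold 0.05). The SE was taken as log2 fold change over √F. The procedure was tested on simulated data. The simulation gave all rows and both groups the same dispersion, so it does not cover the wider spread between the BSA libraries. The BSA libraries held 28657038 and 31695944 counts and the PA libraries 29662410 and 23722074, so a count of a few reads carries large counting error.

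Named transcripts were the 12 higher and 12 lower past 2-fold against both BSA libraries, ordered by the smaller ratio, the 8 of highest mean FPKM, the 4 widest BSA gaps in each direction, the 3 rows on each side of the count minimum, and the listed genes of known role. One list of markers of other cells is not reported here. Divergent and LINC pairs were named after their values were seen. Alternatives used DESeq2 1.42.0, limma 3.58.1 (voom, and log2(FPKM + 1) or log2(FPKM + 0.1)), other factors and filters, a replicate block, a loess trend over GC and length (span 0.3), other folds and sums, and each library left out. Leaving out each library for the count of separate groups was chosen after seeing the data. Plots used matplotlib 3.10.9.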

Additional observations from a re-analysis of the deposited data

How the results depend on the processing

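The 24 named higher and lower transcripts were chosen for their ratios to each BSA library, so their direction under the alternatives, which was kept in 359 values, is no sign of stability. Calls over all rows (0 in edgeR's main design) were 1302 without the filter, 537 (3.08%) with the replicate block, 1350 with the GC and length trend removed, 1824 in DESeq2 and 1 each in limma-voom and in limma on log2(FPKM + 1) and log2(FPKM + 0.1), and 9 to 10467 with a library left out. Same-numbered libraries did not deviate together across rows (correlation 0.00844). With 2 libraries per group this compares a single BSA difference with a single PA difference, so it cannot decide whether the numbers pair them. Calls among the 244 (0) were 26 without the filter, 8 with the replicate block, 17 with the trend removed, 39 in DESeq2 and 0 to 129 with a library left out. Their median log2 fold change (−0.32) was −0.38 by library totals, −0.25 with the trend removed, −0.17 on log2(FPKM + 1) and −0.36 to −0.23 with a library left out.

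Counts past 2-fold moved with the fold and the count minimum, as their construction fixes. The sets held 110 LINC transcripts at a sum of at least 400 and 393 at a sum of at least 30. Shares of all rows at the same fold and sum stand in brackets. Against BSA replicate 1 (86) they were 151 at 1.5-fold, 19 at 4-fold, 29 at a sum of at least 400 and 181 at 30. With a library left out they were 81 to 94. Lower were 43.0% at 1.5-fold (33.1% of rows), 5.33% at 4-fold (6.64%), 20.0% at 400 (20.8%) and 32.6% at 30 (23.7%). Higher were 18.9% (20.9%), 2.46% (2.08%), 6.36% (9.23%) and 13.5% (11.6%). Against BSA replicate 2 (90) they were 146, 28, 34 and 176, and 89 to 98. In the same order, lower were 41.8% (21.4%), 9.02% (2.36%), 26.4% (7.4%) and 33.3% (14.3%). Higher were 18.0% (21.1%), 2.46% (2.35%), 4.55% (10.1%) and 11.5% (12.1%). Between the BSA libraries (45) they were 105, 8, 16 and 100. In the same order, BSA replicate 2 was higher for 24.6% (18.2%), 1.64% (0.626%), 10% (3.95%) and 13.5% (8.66%). It was lower for 18.4% (29.1%), 1.64% (6.3%), 4.55% (19.7%) and 11.96% (19.3%). The same way against both (60) they were 103, 8, 20 and 126, and 54 to 66. At 1.5-fold, 77 of the 244 were lower and 26 higher, against 1810 and 1822 of all 15027 rows. At 4-fold, 400 and 30, lower were 2.05% (0.799%), 16.4% (3.24%) and 25.2% (7.69%). Higher were 1.23% (1.14%), 1.82% (5.36%) and 6.87% (6.33%). Separate groups (171) were 77 at 400, 273 at 30, and 191 to 224 with a library left out. Shares of all rows were not computed for these separate groups or for counts past 2-fold with a library left out. For the other moved values the cause was not tested. Low counts limit the scarce transcripts, and the gap between the BSA libraries limits the 45 in which it reached 2-fold.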
